A study of Mus musculus with 6 samples.

Results

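Cluster 4 is one of the 13 Leiden clusters into which the authors divided the cells of the embryonic mouse outflow tract (OFT), and it has been labelled as the endothelial and endocardial cells of this vessel by the markers Cdh5 and Klf2. Its members were taken as every cell that lay inside the OFT outline and carried cluster label 4. This gave 659 cells of the 6078 OFT cells (10.8%) and of the 364721 segmented cells of the sections (0.181%). Control embryos contributed 357 of these cells and Ankrd11-ncko embryos 302. No cell identifier was shared between cells. Values per gene are not used here, so the markers could not be checked in these cells, and the population is called cluster 4 below.

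MERFISH, which reads single RNA molecules in fixed tissue by repeated rounds of imaging, was performed on a MERSCOPE instrument in transverse sections of E11.5 embryos with a panel of 140 genes. The 3 controls were Ankrd11-nchet embryos (Ankrd11 fl/WT; RosaYFP STOP/STOP; Wnt1Cre2), and the other 3 were Ankrd11-ncko embryos (Ankrd11 fl/fl; RosaYFP STOP/STOP; Wnt1Cre2). All 6 embryos carried the Wnt1Cre2 transgene and the YFP reporter, and the controls also lacked 1 copy of Ankrd11 in the neural crest, so there was no wild-type group. Wnt1 regulatory sequences drive the Cre in the neural crest, a lineage that does not normally give rise to endocardium, so cluster 4, if its label holds, was compared as a population beside the deleted cells.

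The endocardium lines the lumen of the OFT as a single sheet that is continuous with the endothelium of the great arteries. Cdh5 encodes VE-cadherin, the adhesion molecule of endothelial junctions, and Klf2 encodes a transcription factor that responds to flowing blood. Endocardial cells signal to the cushions beneath them and some undergo endothelial-to-mesenchymal transition to populate the cushions, where they meet cardiac neural crest cells (CNCCs). The mesenchyme of the cushions is marked by genes such as Postn, Pdgfra and Sox9, and the authors assigned clusters 2, 3 and 7 to it as CNCCs.

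Sections held 43458 to 82198 segmented cells and their OFT outlines 814 to 1292 cells. The median number of decoded transcripts per cell outside the outline ranged from 339 in control 1 to 511 in Ankrd11-ncko embryo 3. The embryo was the replicate throughout. With 3 embryos against 3, the exact 2-sided permutation test cannot give a p below 0.1 and therefore cannot pass 0.05, so it is reported beside the value of every embryo and beside whether the groups overlapped.

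To determine how large the cluster was in each genotype, its cells were first counted within the outline. The control OFTs held 92, 137 and 128 cluster 4 cells, and the Ankrd11-ncko OFTs held 150, 96 and 56. The numbers overlapped, since the largest and the smallest both came from Ankrd11-ncko embryos (119 ± 23.8 against 101 ± 47.2 cells, mean ± SD, n = 3 and 3, exact permutation p = 0.7). Cluster 4 ranked between the third and the sixth largest cluster of its OFT.

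As a share of all OFT cells, cluster 4 made up 10.1%, 13.9% and 12.1% in the controls and 11.6%, 9.37% and 6.88% in Ankrd11-ncko OFTs. Ankrd11-ncko embryo 3 had the lowest share, with a 95% Wilson interval of 5.34 to 8.83% that covers counting error only, and Ankrd11-ncko embryo 1 lay above control 1, so the groups overlapped. The difference was -2.78 percentage points (exact permutation p = 0.2, 0.52 after Benjamini-Hochberg adjustment over 13 clusters). By comparison, the genotypes did not overlap in 2 of the 13 clusters (15.4%), clusters 1 and 12, and cluster 4 was not among them.

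Because the share of 1 cluster depends on the size of the others, cluster 4 was next expressed as a share of the OFT cells outside the CNCC clusters 2, 3 and 7. On this denominator it made up 15.0%, 20.4% and 18.7% in the controls and 18.0%, 16.5% and 15.5% in the Ankrd11-ncko embryos. The means were closer, at 18.0 ± 2.79% and 16.7 ± 1.29% (SD, n = 3 and 3, difference -1.35 percentage points, exact permutation p = 0.5), and the lowest value was that of control 1. The difference was -0.15 percentage points without control 2 and -2.88 without control 1. With clusters 10 to 13 also left out of the denominator, it was -0.29 percentage points (19.1% in the controls and 18.8% in the Ankrd11-ncko embryos).

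Ratios within the embryo were then taken against each of the 9 other clusters present in every OFT. For each cell of cluster 3, the CNCC cluster that took 42.3% of all OFT transcripts in Ankrd11-ncko embryo 3, there were 2.24, 1.23 and 0.831 cluster 4 cells in the controls and 0.926, 0.561 and 0.187 in the Ankrd11-ncko embryos. This was the greatest of the 9 differences (-1.52 on the log2 scale, exact permutation p = 0.2, adjusted p = 0.9), and the groups overlapped because Ankrd11-ncko embryo 1 exceeded control 3. Without Ankrd11-ncko embryo 3 it was -0.87. For each cell of cluster 1 there were 0.434, 0.815 and 0.465 cluster 4 cells in the controls and 0.838, 0.596 and 0.8 in Ankrd11-ncko embryos (0.43 on the log2 scale, exact permutation p = 0.3, adjusted p = 0.9). This difference was 0.26 without control 1 and 0.71 without control 2. None of the 9 ratios separated the genotypes (0%), and no ratio could pass 0.05 in this design.

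The genotypes overlapped in the share of cells but not in the share of decoded transcripts. Cluster 4 cells held 12.1%, 13.99% and 13.7% of all OFT transcripts in the controls and 11.55%, 11.3% and 7.56% in the Ankrd11-ncko embryos. Every Ankrd11-ncko embryo lay below every control (13.2 ± 1.02% against 10.1 ± 2.24%, SD, n = 3 and 3, difference -3.11 percentage points). The exact permutation p was 0.1, the smallest the design allows, and 0.667 after adjustment over 10 clusters. Cluster 4 was the single one of the 10 clusters whose transcript shares did not overlap (10%). Ankrd11-ncko embryo 3 accounted for much of the difference, which was -1.82 percentage points without it, although the remaining Ankrd11-ncko embryos were still below the controls.

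This measure is the product of the share of cells and of the mean depth of a cluster 4 cell relative to the mean OFT cell. That relative depth was 1.19, 1.00 and 1.13 in the controls against 0.995, 1.21 and 1.098 in Ankrd11-ncko embryos, and the genotypes were not separated. Control 1, which had the lowest share of cells among the controls, had a relative depth of 1.19, and Ankrd11-ncko embryo 1, which had the highest among the Ankrd11-ncko embryos, had 0.995. A lower share of transcripts can come from fewer cells or from less RNA detected per cell, and here the share of cells and the relative depth are therefore both given.

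**Figure D1:**
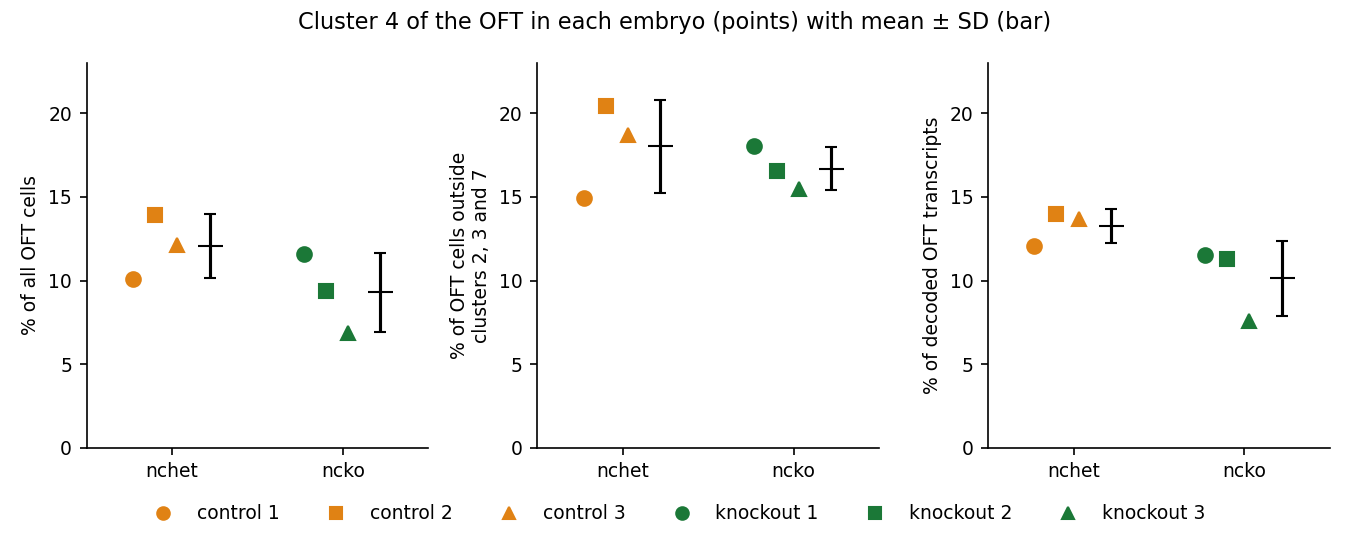
Size of cluster 4 in each embryo as a percentage of all OFT cells (left), of OFT cells outside clusters 2, 3 and 7 (middle) and of decoded OFT transcripts (right); points are embryos, orange for control (nchet) and green for Ankrd11-ncko (knockout 1 to 3), and bars are mean ± SD of 3 embryos. The genotypes overlap in the left and middle panels and do not overlap on the right, where the lowest control is 12.1% and the highest Ankrd11-ncko embryo 11.55%.

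No cluster 4 cell was close to empty. Its poorest cell held 54 decoded transcripts and its richest 2576, and detected panel genes ran from 33 to 124. Over all members the median was 634 transcripts and 89 panel genes, and 47 cells (7.13%) held fewer than 200 transcripts. These sparse cells were 9.78%, 4.38% and 3.91% of cluster 4 in the controls and 12%, 4.17% and 8.93% in the Ankrd11-ncko embryos.

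The median cluster 4 cell held 456, 764 and 688.5 transcripts in the controls and 490.5, 795 and 736 in the Ankrd11-ncko embryos. Control 1 and Ankrd11-ncko embryo 1 were the low embryos, and both were also the lowest in cells outside the outline, with 339 and 418 transcripts. The genotypes overlapped (636 ± 161 against 674 ± 161 transcripts, SD of embryo medians, n = 3 and 3, exact permutation p = 0.6, adjusted p = 1 over 10 clusters). Of the 10 clusters, 1 (10%) had medians that did not overlap between genotypes, and it was cluster 7. Within an embryo, the 75th percentile of cluster 4 was 1.84 to 2.38 times its 25th percentile.

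Set against the other OFT cells of the same embryo, cluster 4 was deeper in 5 of the 6 embryos. The ratio of medians was 1.20, 1.04 and 1.13 in the controls and 0.935, 1.32 and 1.17 in Ankrd11-ncko embryos, of which the first was the exception. Relative depth did not separate the genotypes (difference 0.01 on the log2 scale, exact permutation p = 1). The mean log2 ratio was 0.165 in the controls and 0.176 in the Ankrd11-ncko embryos. Among cells of at least 200 transcripts it was 0.062 and 0.159, so sparse cells of other clusters contributed to the ratio. Against cells outside the outline, the ratio was 1.17 to 1.6, above 1 in all 6 embryos. This was not particular to cluster 4, since the other OFT cells were also deeper than cells outside the outline in every embryo. Their medians were, for example, 379 against 339 transcripts in control 1 and 630.5 against 511 in Ankrd11-ncko embryo 3.

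**Figure D2:**
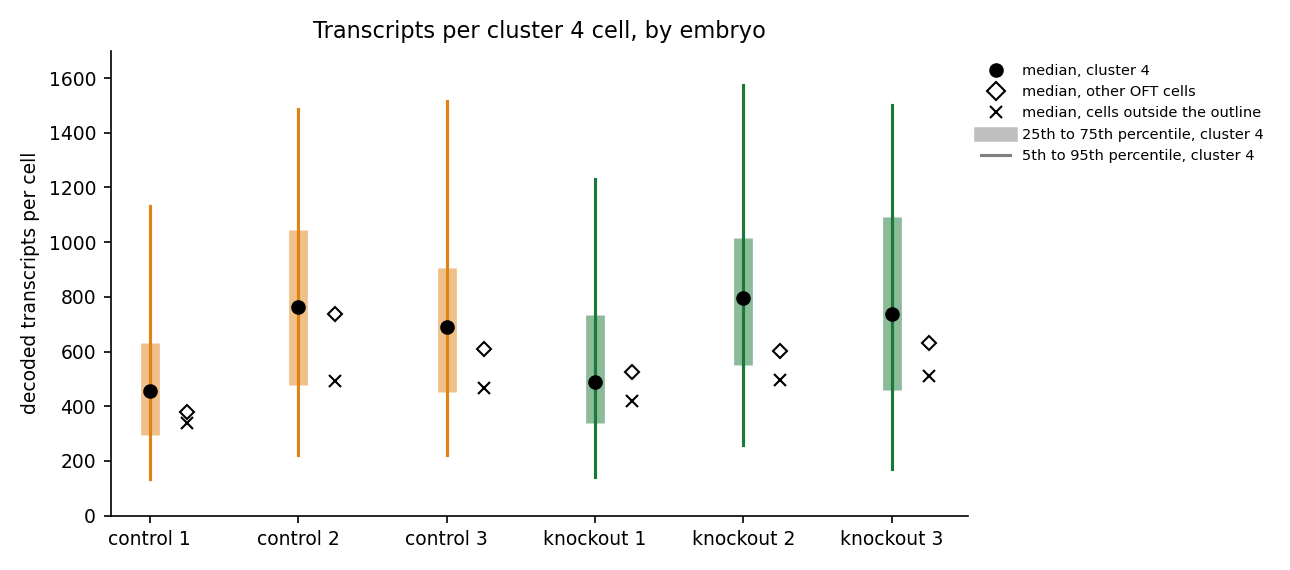
Decoded transcripts per cluster 4 cell in each embryo, with the median (filled circle), the 25th to 75th percentiles (thick bar) and the 5th to 95th (line), orange for control and green for Ankrd11-ncko; open diamonds and crosses are the medians of the other OFT cells and of the cells outside the outline. The cluster 4 median lies above the crosses in every embryo and above the diamonds in every embryo but knockout 1.

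Cluster 4 was next compared with each other cluster of the same embryo. These are descriptions with no test, since the clusters were built from the counts of these cells. Its median depth was higher than that of clusters 5, 7, 8 and 10 in all 6 embryos and lower than that of cluster 6 in all 6. It was higher than that of clusters 2 and 9 in 1 of 6 embryos each, and than that of cluster 3 in 2 of 6. Over the 6 embryos the narrowest range of ratios was that to cluster 1, at 0.922 to 1.08 times the cluster 1 median, with cluster 4 above it in 3 embryos, although the nearest cluster differed from embryo to embryo. The ratio to cluster 5 was 1.53 to 2.24 and the ratio to cluster 6 was 0.579 to 0.965.

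By the number of different panel genes, cluster 4 ranked lower than by depth in 5 of the 6 embryos and the same in Ankrd11-ncko embryo 3. The median cluster 4 cell expressed 81.5, 90 and 94.5 panel genes in the controls and 82.5, 91.5 and 91.5 in Ankrd11-ncko OFTs, ranking sixth or seventh of the clusters of its OFT. The genotypes did not differ beyond their spread (88.7 ± 6.60 against 88.5 ± 5.20 genes, SD, n = 3 and 3, exact permutation p = 1), and none of the 10 clusters separated them on this measure (0%). In the same embryo, cluster 1 cells expressed 8.5 to 16 more panel genes than cluster 4 cells, although their depth was similar.

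As detected genes rise with depth, with a Pearson correlation of 0.928 to 0.970 between log transcripts and panel genes over the cluster 4 cells of an embryo, only cells of at least 400 and under 600 transcripts were then compared. In this window cluster 4 cells expressed 85.1, 79.6 and 84.8 panel genes on average in the controls, from 32, 27 and 22 cells. The Ankrd11-ncko embryos gave 81.0, 83.7 and 81.7 panel genes, from 42, 15 and 13 cells. The groups overlapped (83.2 ± 3.06 against 82.1 ± 1.41 genes, SD, n = 3 and 3, difference -1.01, exact permutation p = 0.8).

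At this matched depth, cluster 4 lay below most of the OFT clusters it was compared with. Its cells expressed fewer panel genes than those of clusters 1, 2, 3 and 8 in all 6 embryos, with median differences of -11.8, -7.81, -6.50 and -7.56 genes, and fewer than those of cluster 9 in all 4 embryos where both had at least 5 cells. They expressed more panel genes than cluster 5 in all 6 embryos, by 7.24 to 11.3 genes. By the median difference over embryos, cluster 6 was nearest in this window (-2.84 genes), with cluster 4 below it in 5 embryos and above it in Ankrd11-ncko embryo 2. Within control 1 and within Ankrd11-ncko embryo 2, cluster 3 was nearer than cluster 6. The direction against clusters 1, 2, 3 and 5 was the same in every embryo with enough cells in the windows from 200 to under 400 and from 600 to under 800 transcripts. In the lower window the direction against cluster 8 was mixed, cluster 4 being lower in 3 of 4 embryos. Cluster 6 had the smallest median difference in the higher window as well (-0.678 genes) but not in the lower one. There cluster 4 was below cluster 6 in all 4 embryos with enough cells. The median difference was -8.72 genes, against -6.87 for cluster 3 in 5 embryos and -5.72 for cluster 9 in 3. The smallest median difference in the lower window was that to cluster 7, at 4.16 genes, with cluster 4 higher in 4 of 5 embryos. In the main window cluster 7 could be compared in 1 embryo only, where cluster 4 was higher by 7.96 genes. The number of genes detected also depends on which genes the panel contained.

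**Figure D3:**
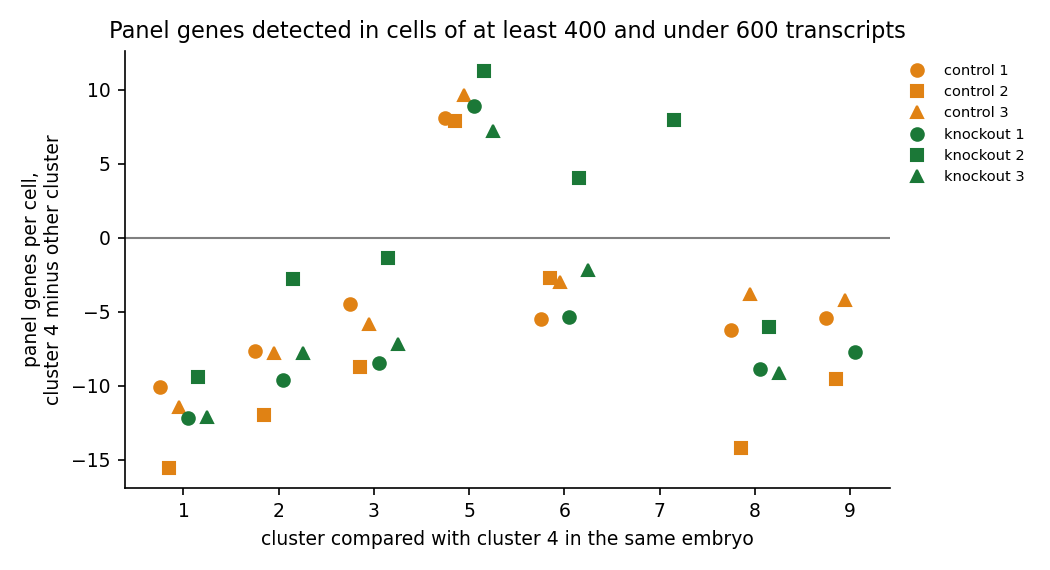
Mean number of panel genes per cell in cluster 4 minus that in each other cluster of the same embryo, among cells of at least 400 and under 600 transcripts; points are embryos, orange for control and green for Ankrd11-ncko, shown where both clusters had at least 5 such cells. All points against clusters 1, 2, 3, 8 and 9 lie below 0, all points against cluster 5 lie above 0 and those against cluster 6 lie on both sides. The 1 point against cluster 7 lies above 0.

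The cell identifiers carry further structure that the clustering did not use. Each identifier has 19 digits, of which the 14th is 1 or 2, and its meaning is not given in the sources used here. Digit 2 was carried by 22.8%, 29.2% and 25.8% of cluster 4 cells in the controls and by 21.3%, 19.8% and 10.7% in the Ankrd11-ncko embryos. The controls were all higher (25.9 ± 3.19% against 17.3 ± 5.74%, SD, n = 3 and 3, exact permutation p = 0.1, adjusted p = 0.25), as in 4 of the 10 clusters (40%) with cluster 4 included.

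The same order was seen outside cluster 4. The other OFT cells carried digit 2 in 18.7%, 23.5% and 17.0% of the controls' cells and in 7.97%, 14.1% and 10.2% of the cells of the Ankrd11-ncko embryos (exact permutation p = 0.1). Outside the outline the shares were 27.4 to 32.2% in the controls and 22.7 to 26.6% in the Ankrd11-ncko embryos (exact permutation p = 0.1). Cluster 4 exceeded the pooled other OFT cells in all 6 embryos. The excess was narrow in Ankrd11-ncko embryo 3, where 6 cluster 4 cells carried digit 2. Cluster 1 taken alone exceeded cluster 4 in every embryo but Ankrd11-ncko embryo 1. The share of digit 2 thus moved with the genotype in cluster 4, in the pooled other OFT cells and outside the outline. It did not do so in every cluster. The control and Ankrd11-ncko means were 23.1% and 22.2% in cluster 6, and 1.15% and 3.10% in cluster 10. The shares of cluster 4 were therefore recomputed in digit 1 cells alone. The difference was then -2.65 percentage points of OFT cells and -2.80 of OFT transcripts, close to the values in all cells. The part of digit 2 in these results was otherwise not tested.

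Identifiers also placed cells in an order. In 5 of the 6 embryos, a cell next to a cluster 4 cell in this order was itself in cluster 4 more often than the cluster's share of the OFT. The percentages were 15.4%, 26.3% and 32.8% in the controls and 19.2%, 29.3% and 5.36% in the Ankrd11-ncko embryos, or 1.54, 1.90, 2.72, 1.66, 3.16 and 0.792 times the share. Ankrd11-ncko embryo 3, the embryo with the fewest cluster 4 cells, was the exception, with 6 of 112 neighbours. Clusters 1, 2, 3, 5, 6, 8, 9 and 10 stood beside themselves more often than their share in all 6 embryos, so cluster 4 was not alone in this. The share was that of the whole OFT, while neighbours came from the same block and digit, and cluster 4 differed in share between blocks. A ratio above 1 therefore does not by itself show that cells of a cluster followed each other in the order. The part of the blocks and the digit in these ratios was not tested.

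The neighbours that were not in cluster 4 were unevenly drawn from the other clusters. Cluster 3, a mesenchymal CNCC cluster, was over-represented among them in all 6 embryos, by 1.28 to 1.89 times, and made up 11 of 154, 50 of 202 and 53 of 172 such neighbours in the controls and 43 of 236, 34 of 135 and 61 of 106 in the Ankrd11-ncko embryos. Cluster 10, which held the cells of lowest depth, was over-represented in all 6 embryos as well (1.11 to 3.44 times). Cluster 5 was under-represented in all 6 embryos (0.398 to 0.647 times), as was cluster 9 (at most 0.758 times), and clusters 2, 6 and 7 were in 5 of 6. Clusters 2, 3 and 7 combined were above their share in 4 of 6 embryos (0.744 to 1.33 times). These ratios too set neighbours of the same block and digit against the whole OFT, and the part of the blocks was not tested. Whether neighbours in this order were neighbours in the tissue was not tested, since cell positions are not used here, and neighbouring cells are not independent, so no test is given.

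**Figure D4:**
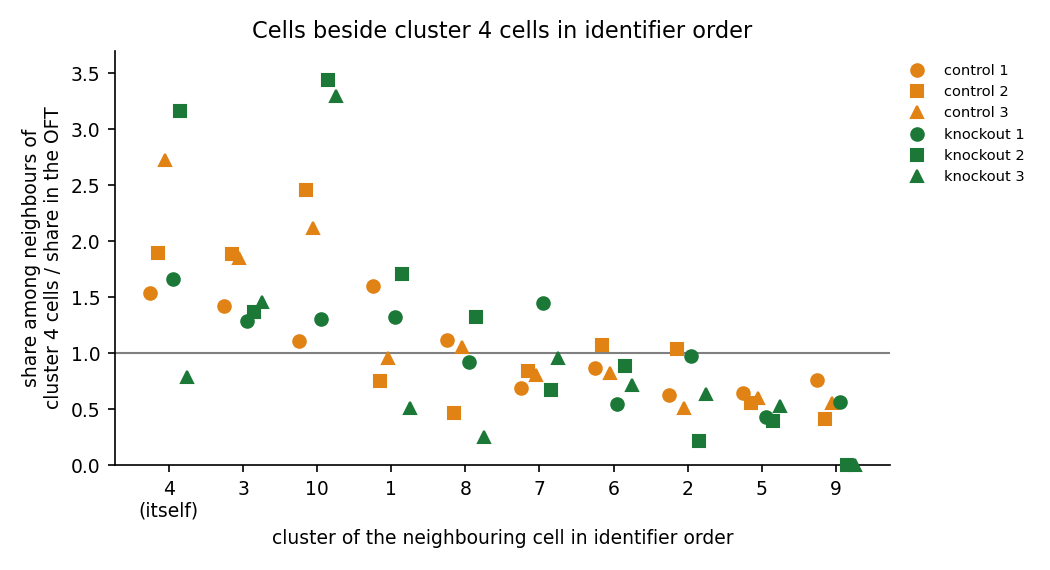
Share of each cluster among the cells just before and after cluster 4 cells in the order of the identifiers, divided by its share in the OFT of the same embryo; points are embryos, orange for control and green for Ankrd11-ncko, the line marks a ratio of 1, and for clusters other than 4 both shares are taken outside cluster 4. Cluster 3 lies at 1.28 to 1.89 and cluster 5 at 0.398 to 0.647, while cluster 4 beside itself lies above 1 in every embryo but knockout 3.

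The identifiers further divide each section into blocks by 5 of their digits, and the OFT lay in 3 or 4 blocks per embryo. The share of cluster 4 differed most between blocks in control 2 and in Ankrd11-ncko embryo 2. In control 2 it made up 127 of 693 cells of 1 block (18.3%, 95% Wilson interval 15.6 to 21.4%) and 4 of 214 of another (1.87%, 0.729 to 4.71%). In Ankrd11-ncko embryo 2 it made up 46 of 181 cells of 1 block (25.4%, 19.6 to 32.2%) and 1 of 212 of another (0.472%, 0.0833 to 2.62%). The spread was narrower in the other embryos with more than 1 block of at least 50 OFT cells, at 8.93 to 10.3% in control 1, 10.7 to 16.4% in control 3 and 8.74 to 15.6% in Ankrd11-ncko embryo 1. In Ankrd11-ncko embryo 3, 796 of the 814 OFT cells and all 56 cluster 4 cells lay in 1 block. Whether the position of the outline moved the share of the cluster was not tested.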

How the data were processed

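MERFISH was performed by the authors on sections of 6 E11.5 embryos. They decoded transcripts with MERlin, segmented cells with Cellpose, read the data with squidpy, drew an outline around the OFT by hand and divided the OFT cells of the whole set into clusters in Seurat, by the Leiden method on principal components of the normalized panel. Of the deposited values, the counts used here are totals per cell, decoded transcripts and panel genes detected, neither normalized. The deposited outline mark and cluster label of each cell were taken unchanged. How doublets were treated and at which resolution cells were clustered is not given in the sources used here. No genome build applies.

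Cells of cluster 4 were counted per embryo with scipy 1.17.1, numpy 2.4.6 and pandas 2.3.3 in Python 3.11.15. Genotypes were compared over 3 embryos and 3 by an exact 2-sided permutation test on the difference between means, with Benjamini-Hochberg adjustment over clusters or ratios, checked on simulated data. The p-values measure the spread between embryos from few litters. Intervals are 95% Wilson intervals. No minimum number of transcripts was set. As values per gene are not used here, cells could not be thinned to 1 depth, and cells of at least 400 and under 600 transcripts were compared instead, and clusters were set against each other where both had at least 5 such cells. Genes are named as markers or background, with no value. Members, lists and tests were chosen with earlier results of these data known. Alternatives were leaving out each embryo, a minimum of 50 transcripts, embryos of 1 title stem, cells pooled by genotype, other denominators, means and other windows. Added after the data were seen were digit 1 cells, a minimum of 200 transcripts and sets of embryos by the first 7 digits of the identifier, alone and as a block.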

Additional observations from a re-analysis of the deposited data

How the results depend on the processing

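No paired analysis was possible because the replicate numbers follow the order of deposit and the labels number no pairs of embryos. Of 153 recomputed values, 125 kept their direction, 19 changed sign, and 9 without a test moved by more than the spread between embryos or, for the count of ratios, away from 0. Many that kept it changed in size. No test passed 0.05 in any setting, which the design does not allow. Differences are Ankrd11-ncko minus control. The share of cluster 4 among OFT cells, its share outside clusters 2, 3 and 7 and its share of transcripts were negative in every setting. Leaving out 1 embryo at a time gave -3.94 to -1.57, -2.88 to -0.15 and -3.82 to -1.82 percentage points. They also gave -43 to 4 for the number of cells, -52.4 to 129 for median transcripts, -3.75 to 2.83 for median panel genes, -0.10 to 0.15 for log2 relative depth, -2.77 to -0.05 for panel genes at matched depth and 0 to 2 for the ratios separating the genotypes. The signs turned without Ankrd11-ncko embryo 3 (number), control 1 (transcripts) and Ankrd11-ncko embryo 2 (transcripts and relative depth), among others. In the embryos of 1 title stem, controls 1 and 2 and Ankrd11-ncko embryo 2 alone, median panel genes differed by 5.75 and panel genes at matched depth by 1.39, and the log2 ratio to cluster 1 by 0.0034. Means gave a relative depth of -0.017, and cells outside the outline as reference gave -0.060. Cells of at least 200 and under 400 transcripts gave 1.25 panel genes, with 4 such cells in Ankrd11-ncko embryo 3. Digit 1 cells gave 0.33 median panel genes.

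Control 3 and Ankrd11-ncko embryo 3 shared the first 7 digits of their identifiers, and the study processed 4 embryos at one facility and 2 at another without the labels saying which. In these 2 embryos the share of cells differed by -5.26 percentage points, the share of transcripts by -6.11 and the number of cells by -72, with no test. In the 4 other embryos the number of cells differed by 8.5, median panel genes by 1.25, relative depth by -0.0061 and panel genes at matched depth by 0.033, and 1 ratio separated the genotypes. There the shares of cells and transcripts differed by -1.53 and -1.61 percentage points. With these sets as a block the differences were unchanged, as each set holds both genotypes equally (12 arrangements, smallest p 0.167). The exact permutation p was then 0.333 for the share of cells and 0.167 for the share of transcripts. The cause of these changes was not tested. The 56 to 150 cluster 4 cells per embryo limit the precision.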
